A study of Homo sapiens with 6 samples.

Results

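The genes described here are the chromosome 19 members of the human zinc finger gene family named ZNF. Members were the protein-coding genes of chromosome 19 in GENCODE release 29 whose symbol is ZNF followed by digits and at most 1 letter, which gave 246 of the 58478 genes with rows in the deposited table. The rule reads the symbol and the position of a gene and no expression value, although the family was picked for description with earlier results of these data known. For comparison, 1222 protein-coding genes of chromosome 19 lay outside the family and 262 ZNF genes lay on other chromosomes.

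ZNF proteins bind DNA through tandem C2H2 fingers, short folds in which a pair of cysteines and a pair of histidines hold a zinc ion. Most of those encoded on chromosome 19 also carry a KRAB domain, which recruits the scaffold protein TRIM28 and, through it, the histone methyltransferase SETDB1, HP1 proteins and histone deacetylases. They are best known as repressors of transposable elements, and the family grew by repeated tandem duplication, which left its members in clusters of related genes along the chromosome. A search of all complete annotated coding sequences of each gene found a KRAB pattern in 208 members and none in 38. A divergent or truncated KRAB domain thus counts as not found, and a member with the pattern may lack it in its longest protein. In its longest annotated protein the median member had 12 fingers, with a range of 0 to 36.

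The 6 libraries carry the label Huh7, a human liver cancer line given as wild type. The 3 hypoxia libraries (C4, C5 and C6 in the table's column names) came from cells kept for 24 h at 1% oxygen, and the 3 normoxia libraries (C1, C2 and C3) from cells kept for 24 h at 21% oxygen. Ribosomal RNA was depleted from total RNA, and the libraries were strand-specific and read from both ends. Replicates are named biological but no culture is described, and a p-value here speaks of differences among these libraries alone, which may be technical.

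Each library held 37621426 to 40794783 expected counts. The 5 genes fixed as a check of the oxygen labels were all higher in hypoxia, such as NDRG1, a stress-response gene, with 7640 ± 203.3 CPM (counts scaled to library size, per 1e6) in hypoxia and 378.9 ± 7.01 CPM in normoxia (SD, n = 3 each). The hepatocyte label was not borne out by its defining markers, since albumin (ALB) had 6 counts over all libraries together and AFP, APOA1, TTR and GPC3 had 0. Of the 12 hepatocyte markers, 8 were under 1 CPM in both groups, and the urea cycle enzyme CPS1 was the abundant exception, at 1773 CPM in hypoxia and 2138 CPM in normoxia. CPS1 was called lower in hypoxia, and the other 3 were called higher. TF had 12.1 CPM in hypoxia and 8.24 CPM in normoxia, HNF4A 7.01 CPM and 1.3 CPM, and SERPINA1 1.83 CPM and 0.0669 CPM. The 5 leukocyte markers summed to 1.62 to 2.28 CPM in hypoxia and 0.932 to 1.12 CPM in normoxia, and the 4 endothelial markers to 4.97 to 5.79 CPM in hypoxia and 11.3 to 12.3 CPM in normoxia. The 5 epithelial markers summed to 398.4 to 421.9 CPM in hypoxia and 513.1 to 530.2 CPM in normoxia, and the 5 fibroblast markers to 58.2 to 67.6 CPM in hypoxia and 72.4 to 75.1 CPM in normoxia. The part of these differences in the results below was not tested.

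Reads can be hard to place where members share sequence, and some finger-coding units were shared. Across the members' coding sequences in GENCODE 29, 2923 distinct finger-coding units of 84 bases were found, and some were identical between members. The unit found in most members was shared by ZNF552, ZNF587B and ZNF814, and another was shared by ZNF417 and ZNF587. Capitals mark the codons of the zinc-binding cysteines and histidines.
ZNF552, ZNF587B and ZNF814: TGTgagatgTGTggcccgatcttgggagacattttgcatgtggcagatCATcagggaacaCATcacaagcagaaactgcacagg
ZNF417 and ZNF587: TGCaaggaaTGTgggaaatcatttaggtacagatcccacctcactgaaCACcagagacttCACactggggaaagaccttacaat

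The promoters of the members that changed most were read from RefSeq (build GRCh38.p14), from 250 bases before to 50 bases after the annotated start. They are shown for the 4 largest rises (ZNF470, ZNF563, ZNF432 and ZNF841) and for the pair of largest falls (ZNF556 and ZNF878). Capitals mark matches to the core of the hypoxia response element, searched as ACGTG or GCGTG on both strands, so that reverse-strand matches read CACGT or CACGC.
ZNF470 promoter, chr19:56567218-56567517, plus strand: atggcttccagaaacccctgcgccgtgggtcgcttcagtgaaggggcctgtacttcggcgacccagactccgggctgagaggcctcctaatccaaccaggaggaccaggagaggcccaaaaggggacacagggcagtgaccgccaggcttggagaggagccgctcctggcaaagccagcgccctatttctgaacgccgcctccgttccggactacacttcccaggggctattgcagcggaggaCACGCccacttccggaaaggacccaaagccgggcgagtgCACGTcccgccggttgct
ZNF563 promoter, chr19:12333584-12333883, minus strand: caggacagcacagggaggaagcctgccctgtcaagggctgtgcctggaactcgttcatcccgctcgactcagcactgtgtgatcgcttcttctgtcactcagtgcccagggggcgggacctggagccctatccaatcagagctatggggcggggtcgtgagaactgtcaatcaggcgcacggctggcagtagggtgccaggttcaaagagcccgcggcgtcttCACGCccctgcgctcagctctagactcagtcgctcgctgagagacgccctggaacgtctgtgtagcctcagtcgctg
ZNF432 promoter, chr19:52048789-52049088, minus strand: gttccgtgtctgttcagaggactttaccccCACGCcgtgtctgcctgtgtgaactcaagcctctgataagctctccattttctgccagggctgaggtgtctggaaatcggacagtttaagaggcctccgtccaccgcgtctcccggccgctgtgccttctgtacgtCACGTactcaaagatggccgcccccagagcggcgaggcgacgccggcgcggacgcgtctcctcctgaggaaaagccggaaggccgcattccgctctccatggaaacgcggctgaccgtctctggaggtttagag
ZNF841 promoter, chr19:52095716-52096015, minus strand: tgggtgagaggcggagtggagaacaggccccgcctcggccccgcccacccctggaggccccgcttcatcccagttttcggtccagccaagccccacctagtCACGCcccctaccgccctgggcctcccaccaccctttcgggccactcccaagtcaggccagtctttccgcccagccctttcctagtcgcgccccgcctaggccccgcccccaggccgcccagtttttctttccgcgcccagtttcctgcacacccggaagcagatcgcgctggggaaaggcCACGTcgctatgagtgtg
ZNF556 promoter, chr19:2867085-2867384, plus strand: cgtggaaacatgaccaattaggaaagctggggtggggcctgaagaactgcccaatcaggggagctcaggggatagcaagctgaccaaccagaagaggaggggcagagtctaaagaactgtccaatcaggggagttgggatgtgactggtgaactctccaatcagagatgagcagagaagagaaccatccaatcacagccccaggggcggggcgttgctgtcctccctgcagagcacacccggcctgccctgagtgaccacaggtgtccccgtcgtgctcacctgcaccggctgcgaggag
ZNF878 promoter, chr19:12052912-12053211, minus strand: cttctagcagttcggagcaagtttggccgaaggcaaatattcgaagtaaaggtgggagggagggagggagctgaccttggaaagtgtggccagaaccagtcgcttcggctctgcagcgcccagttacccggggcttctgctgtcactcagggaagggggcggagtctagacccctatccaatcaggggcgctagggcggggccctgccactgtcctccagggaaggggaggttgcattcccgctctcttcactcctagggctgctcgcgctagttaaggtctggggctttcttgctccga

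The ZNF470, ZNF432 and ZNF841 windows held 2 matches each, the ZNF563 window held 1, and the ZNF556 and ZNF878 windows held 0. A RefSeq promoter was found for 215 members, of which 131 (60.9%) held at least 1 match, against 48.4% of all 35116 RefSeq promoters. Among members higher in hypoxia the share was 71.1% (32 of 45), among those lower 56% (42 of 75) and among those that did not pass the test 64.8% (35 of 54). A match to 5 bases is a description of the window, and the members' windows also held more CpG dinucleotides than promoters in general, with medians of 20 and 14 per window.

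Most members were expressed at low levels. Of the 246, 197 passed the filter on low counts and were tested, and 49 did not, of which 14 had 0 counts in all libraries. Where none was counted, a level of up to 0.0867 CPM in hypoxia and 0.0757 CPM in normoxia is possible (3 counts per library, covering counting error only). Per length, the median tested member stood at 2.66 FPKM (fragments per kilobase of transcript per 1e6 counted) in hypoxia and 3 FPKM in normoxia. The corresponding medians of the other chromosome 19 coding genes were 8.88 FPKM in hypoxia and 8.39 FPKM in normoxia. The highest mean levels over all libraries were those of ZNF331 (28.7 FPKM), ZNF460 (28.3 FPKM), ZNF841 (24.2 FPKM), ZNF146 (22.9 FPKM) and ZNF787 (22.0 FPKM).

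The family took a small and slightly lower share of the RNA in hypoxia. Its members held 0.295% to 0.319% of the counts assigned to genes in the hypoxia libraries and 0.34% to 0.357% in the normoxia libraries, with no overlap between groups. On the TMM-scaled CPM scale used for the tests the groups overlapped, with sums of 3155 to 3370 CPM in hypoxia and 3218 to 3374 CPM in normoxia. The share of the members' counts that fell in transcripts annotated as retained introns was 5.18% to 5.5% in hypoxia and 4.43% to 4.97% in normoxia. The share in protein-coding transcripts was 89.3% to 90% in hypoxia and 90.8% to 91.8% in normoxia. In the other chromosome 19 coding genes, the retained-intron share was 6.94% to 7.02% in hypoxia and 6.49% to 6.97% in normoxia. Their share in protein-coding transcripts was 89.8% to 89.9% in hypoxia and 89.9% to 90.5% in normoxia.

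More members fell than rose in hypoxia, and most changes were small. A large share of all genes passed edgeR's quasi-likelihood test in either direction (72.8%, Benjamini-Hochberg adjusted over 17396 genes). Of the 197 tested members, 48 were higher (24.4%, against 36.5% of all genes tested). A further 86 were lower (43.7%, against 36.3% of all genes tested) and 63 members showed no call. The members had a median log2 change of -0.13, with quartiles of -0.58 and 0.33, beside a median of 0.02 over all genes. At least 2-fold changes were scarcer than over all genes in both directions. By that measure 9 members were higher (4.57%, against 17.5% of all genes tested) and 16 lower (8.12%, against 11.4% of all genes tested). The hypoxia and normoxia libraries did not overlap in 51 members that were higher (25.9%, background 38.1%) and 90 that were lower (45.7%, background 37.6%).

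The split between directions depended on the scaling. With library totals in place of TMM factors, 32 members were higher and 102 lower, and the share of called members that were higher was 23.9%, against 35.8% with TMM. With upper-quartile scaling, 56 were higher and 77 lower, a share of 42.1%. Over all genes, the median shifted to -0.13 with library totals and to 0.09 with upper-quartile scaling. Taken relative to that median, the members' own median hardly moved, at -0.15 for TMM, -0.16 for library totals and -0.16 for upper-quartile scaling.

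Set beside the rest of their chromosome, the members lay lower, whereas they resembled zinc finger genes elsewhere in counts and median. Of 807 tested chromosome 19 coding genes outside the family, 376 were higher (46.6%) and 243 lower (30.1%), with a median log2 change of 0.19 (300 higher, 289 lower and a median of 0.03 with library totals). Of 216 tested ZNF genes of other chromosomes, 56 were higher (25.9%) and 95 lower (44.0%), with a median of -0.12. Over all 13140 tested protein-coding genes, 34.7% were higher and 43.0% lower, with a median of -0.08. The members' share of lower genes was thus close to that of coding genes in general, and their share of higher genes was smaller. These are counts and medians, and no test of the difference between gene sets was made.

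**Figure D1:**
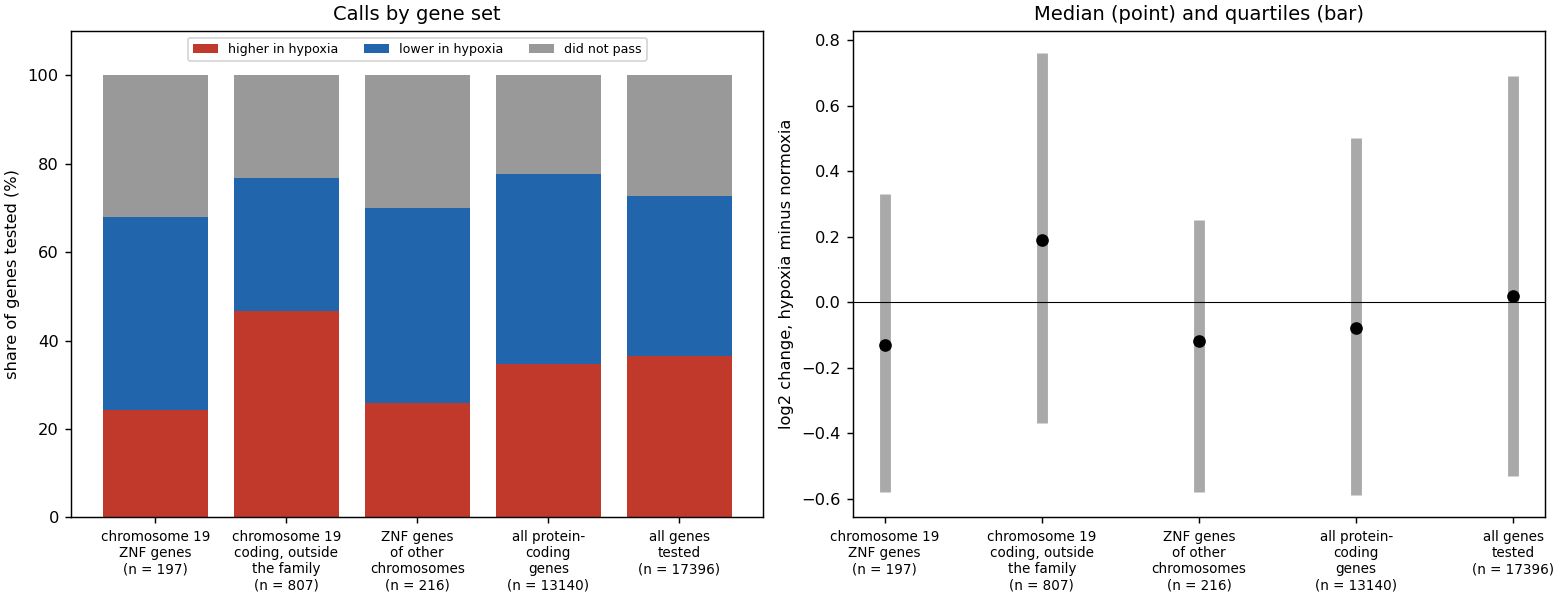
Left, share of tested genes that were higher in hypoxia, lower in hypoxia or did not pass the edgeR test (percent, 5 gene sets, n below each bar). Right, median (point) and quartiles (bar) of the log2 change, hypoxia minus normoxia. The chromosome 19 ZNF genes had a median of -0.13 and the other chromosome 19 coding genes a median of 0.19.

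Base composition differed between the sets compared. The median GC content of the most abundant transcript was 42.8% in tested members and 60.9% in the other chromosome 19 coding genes. At a GC content under 50%, a limit chosen after the data were seen, 35 of 163 members were higher and 78 lower, with a median log2 change of -0.23. The 52 other chromosome 19 coding genes under that limit held 16 higher and 20 lower, with a median of -0.21. At 50% or more, 13 of 34 members were higher and 8 lower (median 0.16), beside 360 higher and 223 lower of 755 genes outside the family (median 0.21). On each side of that limit the medians were similar, while the shares called differed more. Under 50%, 21.5% of members were higher and 47.9% lower, against 30.8% and 38.5% of the other genes. At 50% or more, the shares were 38.2% and 23.5% for members, against 47.7% and 29.5% for the others. The set outside the family included 13 tested genes with other zinc finger symbols, and how many of them lay under the limit was not counted. Across the 197 tested members, log2 change and GC content had a Spearman rho of 0.19, and across the 807 other chromosome 19 coding genes the rho was 0.07, both descriptions across genes that are not independent replicates. The part of base composition in the difference was not tested.

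The KRAB pattern and base composition overlapped, since most members with the pattern lay under 50% GC. Among members with the pattern, 36 of 165 were higher (21.8%) and 74 lower (44.8%), with a median log2 change of -0.15. Of all genes tested, 36.5% were higher and 36.3% lower, and of protein-coding genes tested 34.7% and 43.0%. Among members without the pattern, 12 of 32 were higher (37.5%) and 12 lower (37.5%), with a median of 0.04 (-0.12 with library totals). With the pattern, 34 of 153 members under 50% GC were higher and 69 lower (median -0.16), and 2 of 12 at 50% GC or more were higher and 5 lower (median -0.03). Without the pattern, 1 of 10 members under 50% GC was higher and 9 were lower, among them ZNF146, a finger-only protein, with 59.9, 55.6 and 64.1 CPM in hypoxia and 88.7, 87.0 and 88.9 CPM in normoxia. At 50% GC or more, 11 of 22 members without the pattern were higher and 3 lower, among the higher ones ZNF787, with 42.6, 50.8 and 41.8 CPM in hypoxia and 40.4, 39.6 and 37.1 CPM in normoxia. The ZNF787 rise (log2 change 0.21 ± 0.08 SE, edgeR adjusted p = 0.0302) was lost with library totals, with limma on FPKM, with the most abundant transcript alone, and without hypoxia C5, normoxia C2 or normoxia C3. ZNF genes of other chromosomes gave 17 higher and 39 lower of 85 with the pattern, and 39 higher and 56 lower of 131 without. The number of fingers showed little relation with the change, at a Spearman rho of -0.09 across the 197 tested members.

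**Figure D2:**
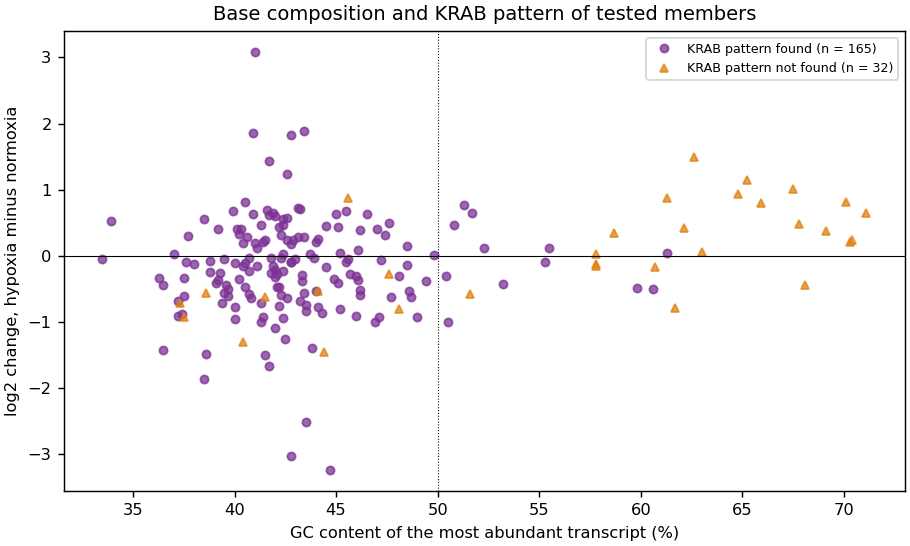
Log2 change of each tested member (hypoxia minus normoxia) against the GC content of its most abundant transcript in percent. Circles mark 165 members with a KRAB pattern and triangles 32 without. The dotted line marks 50%. Triangles right of the line lie mostly above 0 and those left of it mostly below 0.

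Members were placed in 16 positional groups, a gap of over 1 Mb between neighbouring starts ending a group (coordinates are GRCh38, from GENCODE 29). The groups did not change alike. Beside their counts, 36.5% of all genes tested were higher and 36.3% lower, and of protein-coding genes tested 34.7% and 43.0%. All 5 members from ZNF554 to ZNF77 (2.8 to 2.9 Mb) were lower, with a median log2 change of -0.77. With ZNF557, which opens the next group at 7.1 Mb, they made a run of 6 consecutive tested members called lower. From ZNF653 to ZNF791 (11.5 to 12.6 Mb), 3 of 22 tested members were higher (13.6%) and 14 lower (63.6%), with a median of -0.37. From ZNF565 to ZNF573 (36.2 to 37.8 Mb), 2 of 19 were higher (10.5%) and 9 lower (47.4%, near the share of protein-coding genes), with a median of -0.39. From ZNF575 to ZNF296 (43.5 to 45.1 Mb), 2 of 22 were higher (9.09%) and 13 lower (59.1%), with the lowest median among groups of over 5 tested members, -0.50.

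Other groups were mixed, or leaned upward. From ZNF557 to ZNF846 (7.1 to 9.8 Mb), 4 of 14 tested members were higher (28.6%) and 7 lower (50%). The group beside the centromere, from ZNF101 to ZNF254 (19.7 to 24.1 Mb), had 17 of its 37 members below the filter. Of its 20 tested members, 3 were higher (15%) and 8 lower (40%, near the 43.0% of protein-coding genes). The group from ZNF628 to ZNF446 (55.5 to 58.5 Mb) was balanced, with 16 higher and 16 lower of 48 tested members and a median of 0.03 (14 higher, 21 lower and -0.12 with library totals, 20 higher and 15 lower with upper-quartile scaling). Within it, 8 of the 15 members without the KRAB pattern were higher (53.3%) and 2 lower (13.3%), with a median of 0.42. With the pattern, 8 of 33 were higher (24.2%) and 14 lower (42.4%), with a median of -0.10. The median GC content was 62.6% in the members without the pattern and 46.2% in those with it, and the part of each trait was not tested. Only the group from ZNF175 to ZNF331, among groups of at least 5 members, had more members higher than lower with TMM scaling. Neighbouring tested members within a group had log2 changes that were weakly related (Spearman rho 0.20 over 182 pairs that share members and libraries), and the value for neighbouring coding genes outside the family was 0.12 over 804 pairs.

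**Figure D3:**
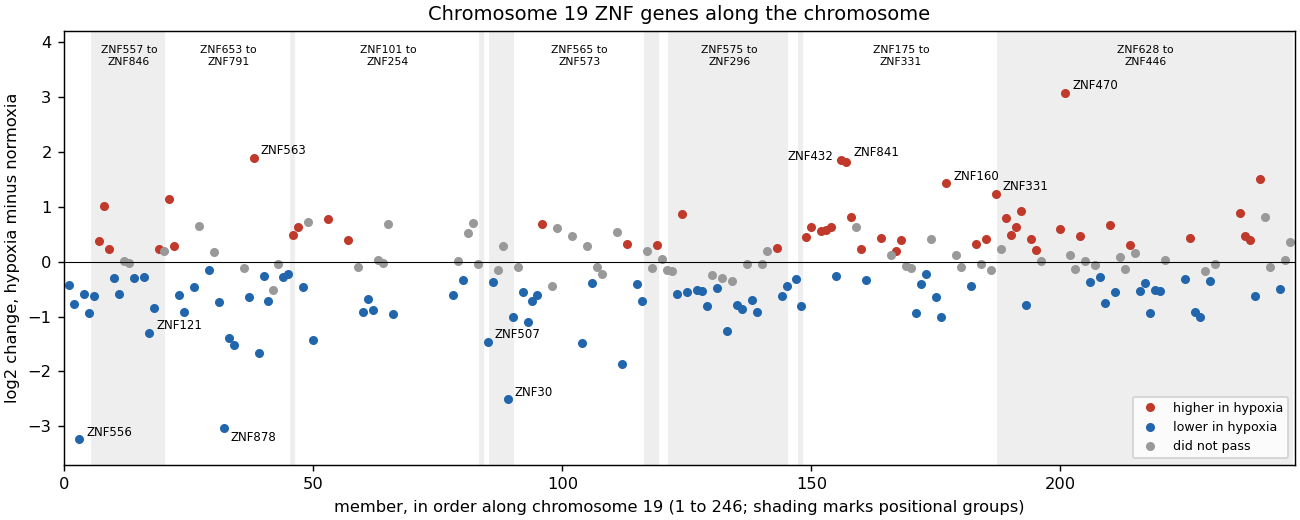
Log2 change of the 197 tested members (hypoxia minus normoxia) in their order along chromosome 19, from 1 to 246. Colours mark the edgeR call and shading the 16 positional groups. The 5 members at the left edge are all below 0, and 16 of the 33 tested members from ZNF175 to ZNF331 are called higher.

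The group from ZNF175 to ZNF331 (51.6 to 53.6 Mb) held 39 members, all with the KRAB pattern. Of its 33 tested members, 16 were higher, 8 were lower and 9 had no call, and the median log2 change was 0.23. That is 48.5% higher and 24.2% lower, beside 36.5% and 36.3% of all genes tested. With library totals the counts were 12 higher and 12 lower, with a median of 0.08. Under limma on log2(FPKM + 0.5), 10 members were higher and 10 lower, and when each member's most abundant transcript was tested alone, 7 were higher and 5 lower. The 5 other coding genes tested in this stretch were all higher, with a median of 0.93, beside 46.6% higher among all such chromosome 19 genes tested. Other groups held such genes too. From ZNF557 to ZNF846, 15 of 35 were higher and 7 lower (median 0.29). From ZNF575 to ZNF296, 8 of 20 were higher and 6 lower (median 0.03), and from ZNF628 to ZNF446, 9 of 21 were higher and 7 lower (median 0.22). An effect of the region was not tested.

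Its strongest rises lay in a block around ZNF432 and ZNF841. ZNF841 had 140.9, 134.6 and 157.2 CPM in hypoxia, against 40.4, 40.7 and 41.7 CPM in normoxia. ZNF432 had 71.3, 69.4 and 81.8 CPM in hypoxia, against 20, 20.7 and 21 CPM in normoxia. Every hypoxia library was thus above every normoxia library for both genes, which the rule for the 10 largest rises required. The log2 changes were 1.82 ± 0.06 (SE, edgeR adjusted p = 8.98e-10) for ZNF841 and 1.85 ± 0.07 (adjusted p = 2.17e-09) for ZNF432. The pair overlap on the same strand in GENCODE 29, where the ZNF432 model reaches back to the ZNF841 start, while RefSeq places the ZNF432 start at the separate promoter printed above. Reads of shared exons may have been divided between them, which was not tested. Of the 75-base stretches of the main transcript, 0% (ZNF432) and 0.0801% (ZNF841) occur in other genes. The main ZNF432 transcript stood at 49.8 CPM in hypoxia and 12.3 CPM in normoxia, and the main ZNF841 transcript at 84.8 CPM and 22.2 CPM. Next to the pair, ZNF616 averaged 40.6 ± 1.13 CPM in hypoxia and 23.0 ± 1.37 CPM in normoxia (SD, n = 3 each).

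A run of 5 consecutive tested members at the start of the group, from ZNF175 to ZNF615, was called higher as well. Its log2 changes were 0.45 to 0.64, and it skips the untested ZNF649. It was picked out after its values were seen. It includes ZNF350, also known as ZBRK1, a partner of BRCA1, with 27.7 ± 1.95 CPM in hypoxia and 18.6 ± 0.784 CPM in normoxia (SD, n = 3 each).

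Further along, ZNF160, described as a repressor of the receptor gene TLR4, had 94.9, 94.4 and 93.7 CPM in hypoxia and 30.6, 35.6 and 38.9 CPM in normoxia. Its log2 change was 1.43 ± 0.07 (SE, edgeR adjusted p = 2.77e-08). ZNF331, an imprinted gene disrupted by rearrangements in thyroid adenomas, had 134.2, 134.0 and 141.8 CPM in hypoxia and 55.9, 59.3 and 58.5 CPM in normoxia. Its libraries did not overlap between groups, which the rule for the 10 largest rises required, and the log2 change was 1.24 ± 0.05 (adjusted p = 1.90e-09). ZNF331 transcripts did not rise by the same amount: ENST00000449416 stood at 31.2 CPM in hypoxia and 19.2 CPM in normoxia, and ENST00000513999 at 21.7 CPM in hypoxia and 1.04 CPM in normoxia. Both passed in the fit across transcripts, with edgeR adjusted p = 0.00154 for ENST00000449416 and adjusted p = 0.0188 for ENST00000513999, and the difference between transcripts was not tested. Against the lean of the group, ZNF816 fell to 3.25 ± 0.768 CPM in hypoxia, against 6.55 ± 0.460 CPM in normoxia.

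Outside that group, the largest rise of the family was that of ZNF470, at 56.6 Mb. ZNF470 had 29.3, 27.3 and 29.3 CPM in hypoxia and 3.55, 3.17 and 3.42 CPM in normoxia, 8.46-fold higher (log2 change 3.08 ± 0.08 SE, edgeR adjusted p = 2.16e-10). Its neighbour ZNF471 was also higher, at 7.25 CPM in hypoxia and 4.79 CPM in normoxia, while ZNF71, next on the other side, did not pass (log2 change 0.12 ± 0.11 SE). ZNF563 rose to 2.16 ± 0.186 CPM in hypoxia, against 0.580 ± 0.0432 CPM in normoxia, within a group that otherwise mostly fell. ZNF497 rose to 1.10 ± 0.142 CPM in hypoxia, against 0.386 ± 0.121 CPM in normoxia, and its most abundant transcript alone did not pass (adjusted p = 0.0557). The remaining members among the 10 largest rises were ZNF653, ZNF414 and ZNF784, with log2 changes of 1.14, 1.01 and 0.93, none of which carries the KRAB pattern.

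**Figure D4:**
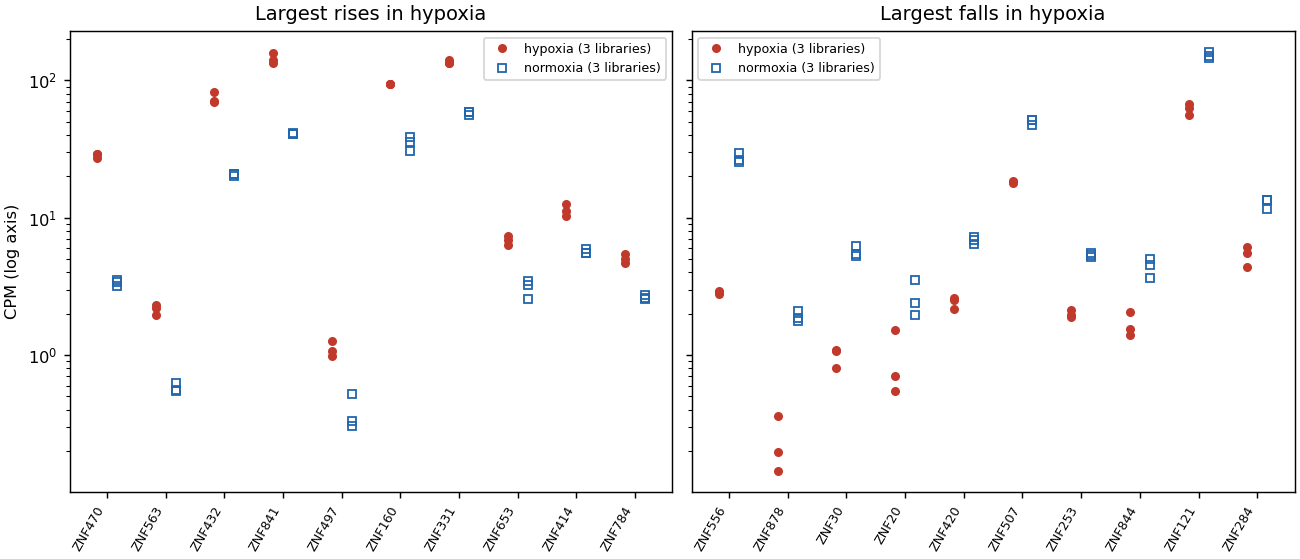
CPM per library, on a log axis, of the 10 members with the largest rises (left) and the 10 with the largest falls (right), among members with a mean of 1 CPM or more in a group. Filled circles are hypoxia libraries and open squares normoxia libraries, 3 each. Hypoxia and normoxia points do not overlap for any of the 20, which the rule that chose them required.

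The largest fall was that of ZNF556, in the group at 2.8 to 2.9 Mb. ZNF556 had 2.89, 2.77 and 2.93 CPM in hypoxia, against 26.3, 25.6 and 29.4 CPM in normoxia. It was 9.45-fold lower (log2 change -3.24 ± 0.09 SE, edgeR adjusted p = 3.31e-10), and both of its main coding transcripts fell in the fit across transcripts. Its neighbours fell less, with log2 changes of -0.77 for ZNF555, -0.59 for ZNF57, -0.93 for ZNF77 and -0.43 for ZNF554. Only 26.4% of the ZNF554 counts lay in protein-coding transcripts, and with those transcripts alone its log2 change was 0.21 and did not pass (adjusted p = 0.469). Its most abundant transcript alone did not pass either (adjusted p = 0.0916).

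The group from ZNF653 to ZNF791 held 3 neighbours among the 10 largest falls. ZNF878 had 0.196, 0.144 and 0.359 CPM in hypoxia and 2.11, 1.77 and 1.86 CPM in normoxia. ZNF844 averaged 1.67 ± 0.347 CPM in hypoxia and 4.38 ± 0.705 CPM in normoxia. ZNF20 averaged 0.925 ± 0.527 CPM in hypoxia and 2.64 ± 0.816 CPM in normoxia, but 71.6% of the 75-base stretches of its main transcript also occur in other genes, and its most abundant transcript alone did not pass (adjusted p = 0.237). These are low levels, at which the SE of the log2 change was 0.19 to 0.36.

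More abundant members fell as well. ZNF121, a finger protein without the KRAB pattern, had 63.2, 55.8 and 66.9 CPM in hypoxia, against 144.9, 151.2 and 160.6 CPM in normoxia (log2 change -1.30 ± 0.07 SE, edgeR adjusted p = 2.78e-08). ZNF507 had 18.6, 17.8 and 18.1 CPM in hypoxia and 47.4, 51.2 and 51.6 CPM in normoxia (log2 change -1.46 ± 0.06 SE, adjusted p = 3.31e-09). Neither gene's libraries overlapped between groups, which the rule for the 10 largest falls required. The most abundant ZNF507 transcript alone did not pass (adjusted p = 0.0833). ZNF30, ZNF420, ZNF253 and ZNF284 completed the 10 largest falls among members with a mean of 1 CPM or more in a group. Their log2 changes were -2.51, -1.49, -1.43 and -1.26. ZNF420, also called Apak, is described as a regulator of p53. ZNF284 shares 42.9% of its 75-base stretches with other genes. ZNF460, second to ZNF331 in mean FPKM, was lower by less, with 77.7 ± 2.19 CPM in hypoxia and 100.2 ± 1.78 CPM in normoxia.

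Of 20 members listed for a described role, 13 were tested, of which 5 were higher, 4 were lower and 4 had no call, and their median log2 change was 0.04. The shares, 38.5% higher and 30.8% lower, lie near those of all genes tested (36.5% and 36.3%). ZNF274, which brings SETDB1 to the ends of other zinc finger genes, rose to 29.3 ± 0.480 CPM in hypoxia, against 21.2 ± 0.269 CPM in normoxia (log2 change 0.47 ± 0.06 SE, edgeR adjusted p = 2.03e-05). Its most abundant transcript alone did not pass (adjusted p = 0.75), while the retained-intron transcript ENST00000595146 was higher, at 10.8 CPM in hypoxia and 6.47 CPM in normoxia (adjusted p = 0.00853). ZNF91, a repressor of SVA retrotransposons, had 56.9, 51.1 and 66.9 CPM in hypoxia and 50.7, 59.9 and 61.4 CPM in normoxia, with overlapping libraries and no call (log2 change 0.02 ± 0.10 SE). ZNF93, which represses L1 retrotransposons, was below the filter, with 8 counts over all libraries.

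Among the others of that list, ZNF675, an inhibitor of TRAF6 signalling also known as TIZ, averaged 12.4 ± 1.14 CPM in hypoxia and 15.6 ± 2.21 CPM in normoxia. It was called lower (adjusted p = 0.0215), and the call was lost with upper-quartile scaling and without hypoxia C5 or normoxia C3. ZNF808, which represses transposable elements and is needed for pancreas development, had 27.8 ± 2.72 CPM in hypoxia and 24.3 ± 1.24 CPM in normoxia, and its call as higher (adjusted p = 0.0472) was lost with library totals, DESeq2, a looser low-count filter, limma on FPKM, coding transcripts only, the most abundant transcript alone, and without hypoxia C4, hypoxia C6, normoxia C1 or normoxia C2. ZNF382, a repressor of NF-kappa-B signalling, was at 1.24 ± 0.276 CPM in hypoxia and 0.765 ± 0.167 CPM in normoxia, and its call as higher (adjusted p = 0.046) was lost with library totals, DESeq2, a looser low-count filter, limma on FPKM, the most abundant transcript alone, and without any 1 library except normoxia C1. ZNF317 was lower (log2 change -0.30 ± 0.05 SE) in total. Its minor transcript ENST00000360385 fell to 0.319 CPM in hypoxia, against 10.1 CPM in normoxia (adjusted p = 0.00659), while its main transcript stood at 37.2 CPM in hypoxia and 38.3 CPM in normoxia. ZNF114 was called lower (log2 change -0.31 ± 0.11 SE), a call lost with upper-quartile scaling, coding transcripts only, and without hypoxia C4, hypoxia C5 or normoxia C2. ZNF224, ZNF324 and ZNF71 did not pass, though a looser low-count filter called ZNF224 lower (log2 change -0.38, adjusted p = 0.0253). ZNF85, ZNF135, ZNF257, ZNF568, ZNF649 and ZNF667 were below the filter, with at most 14 counts each over all libraries.

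Outside the list, ZNF473, which takes part in histone mRNA processing with the U7 particle, fell to 14.3 ± 0.464 CPM in hypoxia, against 24.8 ± 0.936 CPM in normoxia (log2 change -0.80 ± 0.07 SE, edgeR adjusted p = 1.23e-06). Its most abundant transcript alone did not pass (adjusted p = 0.0621). Among members with the highest or lowest log2 change of their positional group, and not yet given, were ZNF428, higher with a log2 change of 0.87, ZNF333, higher with 0.49, ZNF780A, higher with 0.30, ZNF540, lower with -1.87, and ZNF587B, lower with -1.01. ZNF540 was at a low level, 0.232 ± 0.0557 CPM in hypoxia and 0.858 ± 0.137 CPM in normoxia (SE of the log2 change 0.34). Being under 1 CPM in both groups kept it out of the 10 largest falls. Only 27.7% of the ZNF333 counts lay in protein-coding transcripts, and neither those alone (adjusted p = 0.349) nor its most abundant transcript (adjusted p = 0.34) passed. The ZNF780A call was lost with library totals and with limma on FPKM. ZNF90 was called higher (log2 change 0.77 ± 0.30 SE), but only 1.14% of its counts lay in protein-coding transcripts, and the call was lost with library totals, DESeq2, a looser low-count filter, and without hypoxia C5, hypoxia C6, normoxia C1 or normoxia C2. ZNF526, ZNF574, ZNF599 and ZNF780B did not pass, although with library totals ZNF526 (log2 change -0.32, adjusted p = 0.00203) and ZNF780B (log2 change -0.27, adjusted p = 0.029) were called lower. ZNF526 was also called lower with a looser low-count filter, with limma on FPKM and without normoxia C3.

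A list of corepressors of KRAB proteins and other heterochromatin factors mostly fell. Of its 27 genes, all tested, 7 were higher and 18 lower, with a median log2 change of -0.37 (-0.53 with library totals, and -0.31 with 9 higher under upper-quartile scaling). That is 25.9% higher and 66.7% lower, beside 36.5% and 36.3% of all genes tested and 34.7% and 43.0% of protein-coding genes tested. TRIM28 itself had 212.2, 222.2 and 209.9 CPM in hypoxia and 261.9, 262.1 and 251.5 CPM in normoxia, a small fall (log2 change -0.27 ± 0.04 SE, edgeR adjusted p = 1.41e-04). The methyltransferase SETDB1 did not pass (log2 change 0.09 ± 0.05 SE), whereas its partner ATF7IP had 18.8, 17.1 and 19.3 CPM in hypoxia and 78.4, 82.0 and 83.7 CPM in normoxia. ATF7IP was the largest fall of the list (log2 change -2.14 ± 0.06 SE, adjusted p = 2.29e-10).

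The complexes around TRIM28 did not move together. Of the HP1 genes, CBX5 rose to 619.9 ± 27.6 CPM in hypoxia, against 343.3 ± 11.2 CPM in normoxia, and CBX1 rose with a log2 change of 0.34, while CBX3 fell with -0.68. Of the NuRD genes, CHD4 had 237.4, 236.6 and 230.5 CPM in hypoxia, against 503.8, 502.8 and 475.6 CPM in normoxia, HDAC1 and HDAC2 fell with log2 changes of -0.50 and -0.89, and CHD3 rose with 0.64. The HUSH genes MPHOSPH8, PPHLN1 and FAM208A (now TASOR) and their partner MORC2 all fell, with log2 changes of -0.23, -0.73, -0.56 and -0.93. The DNA methyltransferase DNMT1 fell with -0.42, and its partner UHRF1 had 42.0, 17.8 and 48.5 CPM in hypoxia, against 81.5, 62.4 and 95.6 CPM in normoxia, a wide spread in both groups. EHMT1, EHMT2, SUV39H2, ATRX, SMARCAD1 and TRIM24 were lower, SUV39H1, RIF1, TRIM33 and NSD1 were higher, and DAXX did not pass.

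**Figure D5:**
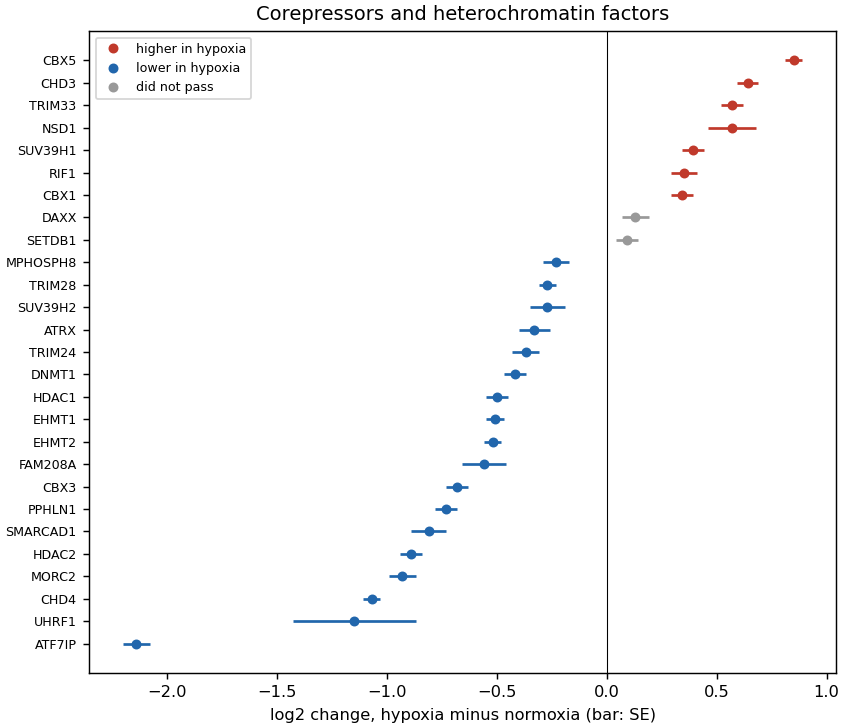
Log2 change (hypoxia minus normoxia) with its SE for 27 corepressors and heterochromatin factors, ordered by change. Colours mark the edgeR call. ATF7IP lies lowest at -2.14 and CBX5 highest at 0.85.

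How reads were placed limits some members. In 112 members no 75-base stretch of the main transcript occurs in another gene, and in 4 over 90% do, among them ZNF468 (99.2%) and ZNF320 (92.9%), whose values are uncertain. Of the 144 tested members with under 5% of such stretches shared, 39 were higher and 61 lower, and of the 53 with 5% or more, 9 were higher and 25 lower. In GENCODE 29, 82 members overlap another gene on the same strand and 78 a gene on the opposite strand, and no source used here says whether counting used the strand. The members that share the finger unit printed first had 6.58 CPM in hypoxia and 12.4 CPM in normoxia (ZNF552), 25.4 CPM in hypoxia and 51.2 CPM in normoxia (ZNF587B), and 12.8 CPM in hypoxia and 14.4 CPM in normoxia (ZNF814). ZNF552 and ZNF587B were called lower, and ZNF814 did not pass.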

How the data were processed

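The authors deposited 1 table of 251062 transcripts with expected counts per library, estimated by RSEM after cutadapt and HISAT2 on GRCh38 (hg38), per the submitters' processing notes. No version and no annotation release is given in the sources used here. The 6 deposited FPKM columns were not used. FPKM was computed per gene here, from expected counts and the table's own transcript lengths (full, not effective).

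Transcripts were summed per gene with GENCODE 29. A gene was found for 202907 rows, and the other 48155 rows (6.12% to 6.39% of each library's expected counts) were left out of library sizes and tests. Gene sums were rounded, filtered with filterByExpr, scaled with TMM and tested with edgeR 4.0.16 (limma 3.58.1, R 4.3.3), two-sided, with Benjamini-Hochberg adjustment over 17396 genes and a threshold of 0.05. SE was derived from the log2 change and its F statistic. Transcripts were also tested in a separate fit. Expected counts need not be whole, and intervals and floors cover counting error only.

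Library correlations across genes were 0.987 to 0.991 within groups and 0.914 to 0.919 between them, and no pair of libraries agreed within sampling noise. The table's column numbers match no replicate number in the labels, so libraries were assigned to groups only.

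The members and lists were chosen with earlier results of these data known. The rule for named genes took the 10 largest rises and 10 largest falls among members past the threshold. For these alone, groups that do not overlap and a mean of 1 CPM or more in a group were also required. Whatever their result, it also took the 5 highest mean FPKM, 20 members with a described role, the highest and lowest log2 change in each positional group, and the corepressors. Others named were chosen after their values were seen. KRAB patterns were searched in translations of every complete GENCODE 29 coding sequence of a gene, and C2H2 fingers were counted in the longest. Alternatives were DESeq2 1.42.0, other filters and scalings, limma on log2(FPKM + 0.5) and log2(FPKM + 0.1), coding transcripts only, the most abundant transcript, leaving out each library, and a limit of 50% GC.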

Additional observations from a re-analysis of the deposited data

How the results depend on the processing

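No paired analysis was possible because the column numbers carry no replicate number of the labels. Leaving out each library in turn gave 40 to 47 members higher and 76 to 85 lower, medians of -0.16 to -0.13 for members and 0.14 to 0.23 for other chromosome 19 coding genes. The members' median was -0.29 with library totals, -0.07 with upper-quartile scaling, and -0.22 and -0.25 with limma on log2(FPKM + 0.5) and log2(FPKM + 0.1). The median of the other chromosome 19 coding genes was 0.03 with library totals and with both limma settings, 0.25 with upper-quartile scaling and 0.07 with the most abundant transcript alone. Restricted to under 50% GC, added after the data were seen, the medians were -0.23 for members and -0.21 for the others, which turned the sign of the others' median. Both limma settings called 31 members higher and 99 lower, of them 10 higher and 10 lower from ZNF175 to ZNF331. The most abundant transcript alone gave 25 higher and 53 lower, and 7 higher and 5 lower from ZNF175 to ZNF331. A gap of 2 Mb gave 9 positional groups. Of 46 named members, 28 kept direction and call under every alternative run, 17 gained or lost a call under at least 1, and ZNF554 turned to 0.21 with coding transcripts only. The causes were not tested. Depth limits the 49 members below the filter.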
